A study of Mus musculus with 6 samples.

Results

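Hippo pathway genes and genes known as targets of its effector YAP were described in hearts of 11-month-old mice. The set held 9 genes, chosen by name from the 78409 genes of the deposited table: Ccn1, Ccn2, Ankrd1, Amotl2, Yap1, Wwtr1, Tead1, Lats1 and Lats2. All 9 were in the table, and all 9 were among the 13717 genes tested, which had a CPM (deposited counts scaled to a common library total) of at least 1 in at least 3 libraries. The tested animals carried a knockout of Ybx1 restricted to cardiomyocytes (Ybx1cmKO, 3 hearts) and were compared with littermate controls (3 hearts), each heart as a library of its own. Ybx1 encodes a cold-shock-domain protein that binds RNA and DNA. The recombinase line behind the deletion, the alleles of the controls and the sex of the animals are not given in the sources used here. Heart tissue was sequenced, so cell types other than cardiomyocytes contributed to every library.

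The Hippo pathway is a kinase cascade that restrains tissue growth. MST kinases with their scaffold SAV1 activate the LATS kinases, which phosphorylate YAP (Yap1) and its relative TAZ (Wwtr1) and so keep them out of the nucleus. Unphosphorylated YAP and TAZ enter the nucleus and bind TEAD factors on the promoters and enhancers of target genes such as Ccn1, Ccn2, Ankrd1 and Amotl2. In the heart, YAP drives cardiomyocyte proliferation before birth, and the pathway responds to stretch, cell contact and injury. Because the kinases act on proteins, levels of their mRNA do not measure the activity of the pathway.

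TEAD factors bind the MCAT element, and the promoters of the genes were searched for its core, CATTCC, on both strands. RefSeq windows (build GRCm38.p6) of 250 bases before the transcript start existed for 7 of the 9 genes. Ccn2 and Tead1 were not matched. The core lay in the windows of 5 genes, namely Ccn1, Ankrd1, Amotl2, Yap1 and Wwtr1, and not in those of Lats1 and Lats2. The share of windows that held it was 12.6% among all 32851 of RefSeq. The window of Ccn1 is shown whole because this gene is a textbook target of YAP and the window crosses no annotated exon. It spans chr3:145649986-145650235 on the minus strand, and the capitals mark the MCAT core 103 to 98 bases before the start.
Ccn1 promoter: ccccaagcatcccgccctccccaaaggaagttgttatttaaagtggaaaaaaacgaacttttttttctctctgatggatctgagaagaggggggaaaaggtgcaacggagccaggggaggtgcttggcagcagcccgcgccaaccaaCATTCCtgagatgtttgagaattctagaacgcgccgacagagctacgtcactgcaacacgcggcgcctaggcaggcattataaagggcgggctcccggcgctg

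The other matches are shown as 30 bases each, read along the strand of the gene, with the core in capitals (CATTCC or its reverse complement GGAATG). Ankrd1 was the matched gene with a pair of cores, 210 to 205 and 123 to 118 bases before the RefSeq start, and GENCODE M21 places both inside an exon of Ankrd1. The Amotl2 core lay 65 to 60 bases before the RefSeq start, and GENCODE M21 places it inside an exon of Amotl2. The Yap1 core lay 141 to 136 bases and the Wwtr1 core 136 to 131 bases before the start, outside any annotated exon. A further Wwtr1 window held the same site.
Ankrd1, distal (chr19:36120037-36120066, minus strand): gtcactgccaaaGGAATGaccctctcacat
Ankrd1, proximal (chr19:36119950-36119979, minus strand): gacactaagtctGGAATGaaaattcacctg
Amotl2 (chr9:102717727-102717756, plus strand): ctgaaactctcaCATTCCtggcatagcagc
Yap1 (chr9:8004720-8004749, minus strand): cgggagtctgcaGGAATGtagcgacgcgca
Wwtr1 (chr3:57576029-57576058, minus strand): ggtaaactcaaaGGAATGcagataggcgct

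Neither the AP-1 element TGANTCA nor the CArG box of SRF was matched in any window of the 7 genes. Those motifs occurred in 6.75% and 1.47% of all windows. These matches describe the letters of the windows and say nothing of occupancy.

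The libraries held 12270796 to 15141525 counts, and levels below are CPM scaled by trimmed-mean (TMM) factors, called normalised CPM. Ybx1 was at 203, 172 and 110.0 normalised CPM in the Ybx1cmKO hearts and at 851, 813 and 898 in the control hearts, or 18.9% of the control mean, so each library matched its label. This is a log2 fold change of -2.40 (SE 0.27). Its Benjamini-Hochberg adjusted p over all genes was 0.148 in edgeR's quasi-likelihood test and 2.05e-16 in DESeq2. Ybx1cmKO heart 3 stood apart in composition, since mitochondrial rRNA took 10.7% of its total and 20.5% to 26.3% of the others. It also held 668 deposited CPM of the nuclear RNA Malat1, against 3317 to 7923 in the others. Fibroblast markers, summed over 6 genes, reached 716 to 886 normalised CPM in Ybx1cmKO hearts and 604 to 704 in control hearts. All 6 fibroblast markers had a log2 fold change above 0 (median 0.35), and so had all 6 macrophage markers (median 0.41), whose sums were 102 to 153 in Ybx1cmKO and 76.0 to 103 in control hearts. Cardiomyocyte markers summed to 14994 to 18602 in Ybx1cmKO and 17589 to 19826 in control hearts, and 4 of the 6 lay below 0 (median -0.22). Among them, in a choice made after the values were seen, Myh6 and Ryr2 were lower in every Ybx1cmKO heart than in any control. This held for 5.82% of all genes. The log2 fold changes of Myh6 and Ryr2 were -0.64 and -0.26 (edgeR adjusted p = 0.694 and 0.696). Those of Tnni3 and Mb lay above 0, at 0.05 and 0.13. Atrial markers differed between hearts of the same genotype. Myl4, the atrial myosin light chain, was at 1.56, 27.8 and 92.5 normalised CPM in Ybx1cmKO hearts 1, 2 and 3. In control hearts 1, 2 and 3 it was at 4.45, 27.0 and 96.6. Myl4, Sln and Myl7 each rose from heart 1 to heart 3 in both genotypes. Nppa, the remaining atrial marker, did not share this order in Ybx1cmKO hearts. It was at 91.8, 258 and 106 in Ybx1cmKO and at 116, 156 and 175 in control hearts. No fibroblast, cardiomyocyte or macrophage marker was at 0 in all libraries, and the part of these cell types and of atrial tissue in the results below was not tested. In such bulk samples, more cells of a type cannot be told apart from more RNA per cell.

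The 3 secreted or stretch-linked target genes Ccn2, Ccn1 and Ankrd1 had the largest fold changes of the 9 genes, all above 0, and no gene of the set passed the threshold of edgeR over all genes. Over all 13717 genes edgeR called 0% at an adjusted p below 0.05, while 5.14% had an unadjusted p below 0.05. Unadjusted, 3 of the 9 genes were below 0.05, all higher in Ybx1cmKO, where 2.69% of all genes were. None of the 9 was below 0.05 and lower, where 2.45% of all genes were. DESeq2 called 1 of the 9 genes, Ccn2, and 0.109% of all genes. Of the 9 genes 8 had a log2 fold change above 0, as did 51.1% of all genes, and their median was 0.32, where that of all genes was 0.01. In 2 of the 9, Ccn2 and Tead1, every Ybx1cmKO heart lay above every control heart, as in 6.26% of all genes. In none of the 9 did every Ybx1cmKO heart lie below every control, as in 5.82% of all genes. The 9 genes and the lists below were chosen with earlier results of these data known. Their shares set beside those of all genes are therefore no independent test. Gene positions below are those of GENCODE M21 on GRCm38, not of the build of the counts.

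**Figure D1:**
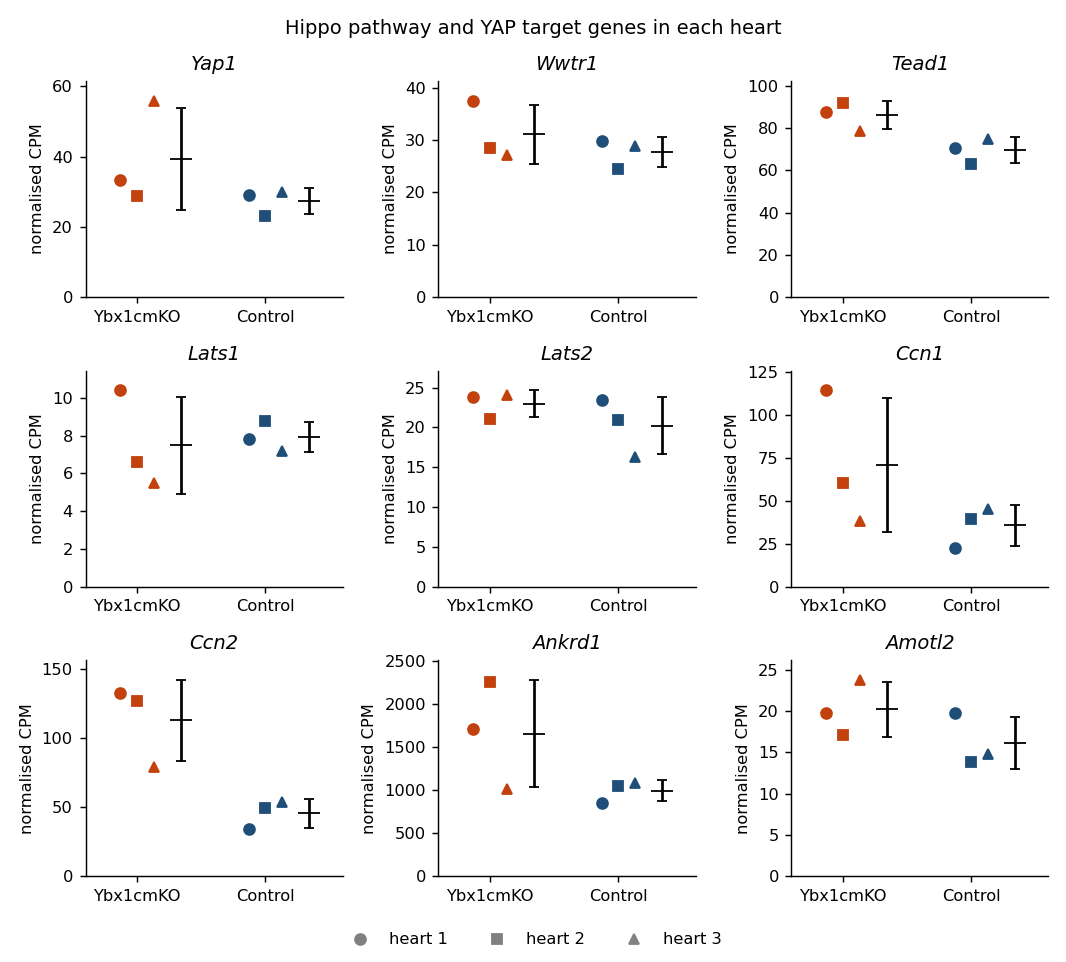
Normalised CPM (y axis, from 0) of the 9 genes in each of the 3 Ybx1cmKO hearts (left, orange) and 3 control hearts (right, blue), with the heart number as marker shape and the mean ± SD in black. The groups are separate for Ccn2 and Tead1 and overlap for the other 7 genes.

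Ccn2 (ENSMUSG00000019997, chr10:24595442-24598683, plus strand) encodes connective tissue growth factor, a matricellular protein released by fibroblasts and cardiomyocytes. It was at 132, 127 and 79.1 normalised CPM in Ybx1cmKO hearts 1, 2 and 3 and at 34.0, 49.3 and 53.6 in control hearts 1, 2 and 3. These rest on 1947, 1674 and 1423 deposited counts in the Ybx1cmKO libraries and on 420, 534 and 808 in the control libraries. The groups did not overlap, and the lowest Ybx1cmKO heart was the one that stood apart in composition. The means were 113 ± 29.3 and 45.6 ± 10.3 normalised CPM (Ybx1cmKO and control, SD, n = 3 each), a fold change of 2.47 (95% interval 1.62 to 3.76). By unadjusted p Ccn2 ranked 14 of all 13717 genes in edgeR (adjusted p = 0.694), and DESeq2 called it higher (adjusted p = 0.00895). An exact permutation test of the normalised CPM gave a two-sided p of 0.1, and no smaller p can be reached with 3 hearts a group. On the log2 scale the change of 1.30 stayed between 1.12 and 1.51 when any heart was left out. An antisense transcript, Gm15270, overlaps an exon of Ccn2, and the library protocol describes no step that marks strand. The reads of these overlapping genes can therefore not be told apart, and Gm15270 held 182 counts over the 6 libraries where Ccn2 held 6806.

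Ccn1 (ENSMUSG00000028195, chr3:145646976-145649981, minus strand), also known as Cyr61, encodes another secreted matricellular protein, which binds integrins and is induced within minutes of a stimulus. Its levels were 115, 60.5 and 38.6 normalised CPM in the Ybx1cmKO hearts and 22.4, 39.7 and 45.2 in the control hearts. Ybx1cmKO hearts 1 and 2 lay above all controls, and heart 3 lay below 2 of them. On average Ccn1 differed by a log2 fold change of 0.99 (95% interval 0.06 to 1.92, edgeR adjusted p = 0.694), which was 0.46 without Ybx1cmKO heart 1. Within the Ybx1cmKO group, summed endothelial markers fell from heart 1 to heart 3 as Ccn1 did. They were at 434, 268 and 211 normalised CPM in Ybx1cmKO hearts 1, 2 and 3. In control hearts 1, 2 and 3 they were at 360.3, 354 and 283, where Ccn1 ran the other way. This course was not particular to endothelial markers. Summed smooth muscle and pericyte markers were at 703, 458 and 410 in Ybx1cmKO hearts and at 641, 565 and 515 in control hearts. The part of these cell types in the level of Ccn1 was not tested.

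Ankrd1 (ENSMUSG00000024803, chr19:36111961-36120099, minus strand) encodes a cardiac ankyrin repeat protein that binds titin in the sarcomere and also acts in the nucleus, and it is induced by stretch. Its level was 1705, 2254 and 1009 normalised CPM in the Ybx1cmKO hearts and 852, 1047 and 1080 in the control hearts. Ybx1cmKO hearts 1 and 2 exceeded every control, while heart 3 was inside the control range. A log2 fold change of 0.74 resulted (95% interval 0.04 to 1.44, edgeR adjusted p = 0.694), which was 0.44 without Ybx1cmKO heart 2. The spread was wider among Ybx1cmKO hearts, whose highest value was 2.23 times the lowest, against 1.27 times among controls. The ratio of Ankrd1 to Ccn2 within a heart was 12.9, 17.7 and 12.8 in Ybx1cmKO hearts and 25.1, 21.2 and 20.2 in control hearts. Between the groups this ratio did not overlap, and it was lower in every Ybx1cmKO heart.

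Amotl2 (ENSMUSG00000032531, chr9:102716672-102733418, plus strand) encodes an angiomotin that binds YAP in the cytoplasm and is itself a YAP target. It stood at 19.7, 17.1 and 23.7 normalised CPM in the Ybx1cmKO hearts and 19.7, 13.9 and 14.8 in the control hearts. The estimate for Amotl2 was a log2 fold change of 0.32 (95% interval -0.16 to 0.81, edgeR adjusted p = 0.694), and it was 0.19 without Ybx1cmKO heart 3. The interval of Amotl2 lay within a 2-fold difference either way, unlike those of Ccn1, Ccn2 and Ankrd1. In 4 of the 6 libraries its deposited count was not whole. Counts were whole in 3 of the 6 libraries for Ankrd1, in 4 for Lats2 and in 5 for Tead1. How counts that are not whole arose is not given in the sources used here.

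**Figure D2:**
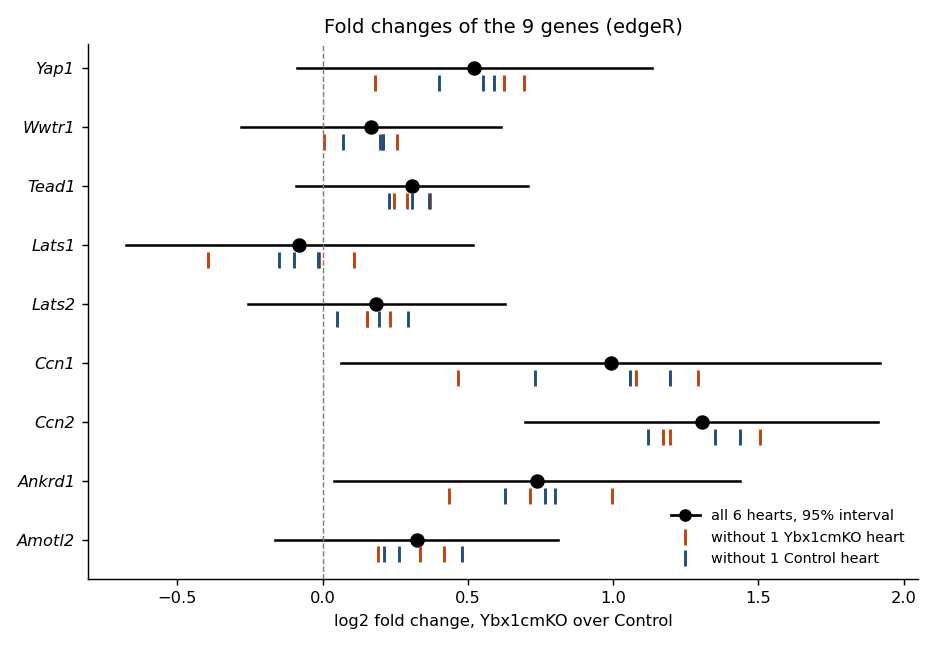
Log2 fold change of each gene, Ybx1cmKO over control (x axis), from edgeR with all 6 hearts (black points with 95% intervals) and with 1 heart left out (orange ticks for a Ybx1cmKO heart, blue ticks for a control heart). Ccn2 stays between 1.12 and 1.51, Yap1 drops to 0.18 without Ybx1cmKO heart 3, and Lats1 lies on both sides of 0.

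Among the transcriptional effectors, Yap1 (ENSMUSG00000053110, chr9:7931999-8004596, minus strand), the coactivator at the end of the cascade, was at 33.4, 28.7 and 55.9 normalised CPM in the Ybx1cmKO hearts and 29.0, 23.2 and 29.9 in the control hearts. The high value was that of Ybx1cmKO heart 3, and the other hearts of both genotypes lay closer together. For Yap1 the log2 fold change was 0.52 (95% interval -0.09 to 1.14, edgeR adjusted p = 0.694), and it was 0.18 without that heart. Wwtr1 (ENSMUSG00000027803, chr3:57455649-57575910, minus strand), which encodes TAZ, was at 37.5, 28.5 and 27.2 normalised CPM in the Ybx1cmKO hearts and 29.8, 24.4 and 28.9 in the control hearts. For Wwtr1 the log2 fold change was 0.17 (95% interval -0.28 to 0.61, edgeR adjusted p = 0.764) and 0.005 without Ybx1cmKO heart 1. The ratio of Yap1 to Wwtr1 was 0.889, 1.01 and 2.06 in the Ybx1cmKO hearts and 0.976, 0.951 and 1.04 in the control hearts, so 1 heart departed from a ratio near 1.

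Tead1 (ENSMUSG00000055320, chr7:112679318-112906807, plus strand) encodes a TEAD factor, the DNA-binding partner of YAP and TAZ. Its levels were 87.8, 92.1 and 78.7 normalised CPM in the Ybx1cmKO hearts and 70.5, 63.1 and 75.1 in the control hearts. The groups did not overlap, but the gap between the lowest Ybx1cmKO heart and the highest control was small. With a log2 fold change of 0.31 (95% interval -0.09 to 0.71, edgeR adjusted p = 0.694), Tead1 missed the threshold, and leaving out any heart kept the value between 0.23 and 0.37. The exact two-sided permutation p of Tead1 was 0.1. Among its paralogues, Tead3 was at 5.15 ± 1.69 and 8.08 ± 3.01 normalised CPM (Ybx1cmKO and control, SD, n = 3 each). Tead2 was at 3.83 ± 0.748 in Ybx1cmKO and 4.83 ± 1.06 in control hearts, and Tead4 at 2.24 ± 1.07 in Ybx1cmKO and 2.17 ± 0.461 in control hearts.

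The LATS kinases, which phosphorylate YAP and TAZ, gave no call. Lats1 (ENSMUSG00000040021, chr10:7681214-7716460, plus strand) was at 10.4, 6.60 and 5.50 normalised CPM in the Ybx1cmKO hearts and 7.85, 8.78 and 7.16 in the control hearts. The control values lay inside the range of the Ybx1cmKO values. Its log2 fold change of -0.08 (95% interval -0.68 to 0.52, edgeR adjusted p = 0.919) had no stable direction, being -0.39 without Ybx1cmKO heart 1 and 0.11 without Ybx1cmKO heart 3. Lats2 (ENSMUSG00000021959, chr14:57689662-57758388, minus strand), which is both a kinase of the cascade and a YAP target, was at 23.9, 21 and 24.0 normalised CPM in the Ybx1cmKO hearts and 23.5, 20.9 and 16.3 in the control hearts. For Lats2 the log2 fold change was 0.19 (95% interval -0.26 to 0.63, edgeR adjusted p = 0.741), and 0.05 without control heart 3. Another gene, Gm49361, overlaps an exon of Lats2 on the same strand. Gm49361 held 108 counts over the 6 libraries where Lats2 held 1821. The ratio of Lats2 to Lats1 was 2.29, 3.18 and 4.36 in the Ybx1cmKO hearts and 2.99, 2.38 and 2.28 in the control hearts, and the groups overlapped.

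**Figure D3:**
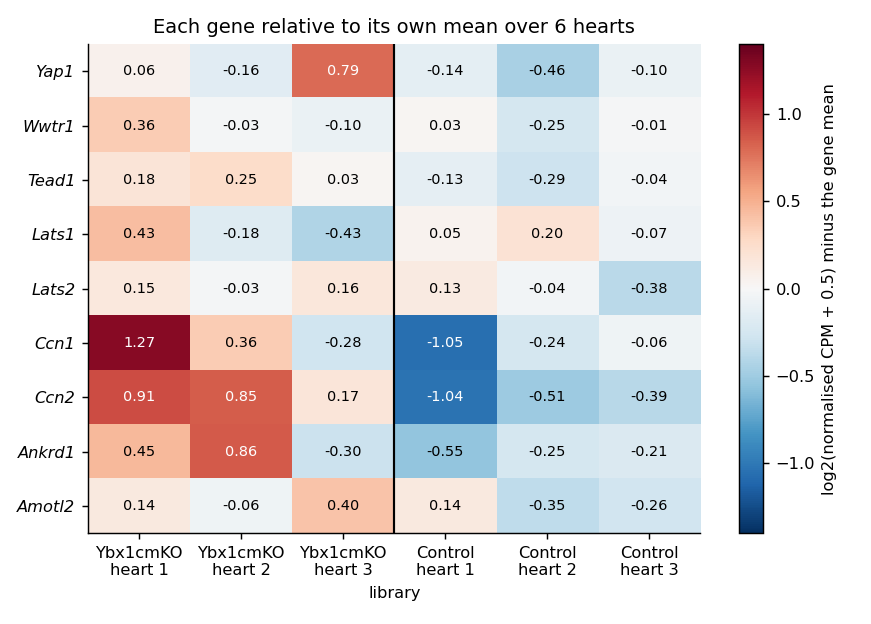
Level of each gene in each library as log2(normalised CPM + 0.5) minus its mean over the 6 hearts (colour and printed value), with Ybx1cmKO hearts on the left. Ccn1, Ccn2 and Ankrd1 have their lowest value in control heart 1 and their high values in Ybx1cmKO hearts 1 and 2, whereas Yap1 and Amotl2 peak in Ybx1cmKO heart 3.

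Heart by heart, the 9 genes did not follow a common course. Ccn1, Ccn2 and Ankrd1 were lowest in control heart 1 and were high in Ybx1cmKO hearts 1 and 2. Yap1 and Amotl2 were highest in Ybx1cmKO heart 3, the library that stood apart, in which Ccn1, Ccn2 and Ankrd1 were the lowest of their group. Lats2 was nearly level in Ybx1cmKO hearts 3 and 1 and control heart 1, at 24.0, 23.9 and 23.5 normalised CPM. As a measure of likeness, the root mean square difference of centred log2 levels over the 6 hearts was 0.36 between Ccn2 and Ccn1 and 0.36 between Ccn2 and Ankrd1. It was 0.71 between Ccn2 and Yap1 and 0.56 between Ccn2 and Tead1. The closest pair was Wwtr1 and Tead1 at 0.16, both of which vary little.

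Per kilobase of annotated exon (GENCODE M21), Ankrd1, Ccn2 and Ccn1 were the most abundant of the 9 genes, with Ankrd1 at 574 normalised CPM per kilobase in Ybx1cmKO and 344 in control hearts. Ccn2 stood at 39.4 and Ccn1 at 35.3 normalised CPM per kilobase in Ybx1cmKO hearts, and in control hearts Ccn2 stood at 16 and Ccn1 at 17.7. The ranges of Ccn1 and Ccn2 over hearts overlapped in both genotypes, so their order is not resolved. Wwtr1 (6.50 in Ybx1cmKO and 5.79 in control hearts) and Tead1 (6.35 in Ybx1cmKO and 5.13 in control hearts) followed, with overlapping ranges. Yap1 (4.25 in Ybx1cmKO, 2.96 in control), Lats2 (3.29 in Ybx1cmKO, 2.90 in control) and Amotl2 (3.21 in Ybx1cmKO, 2.56 in control) came next, each overlapping its neighbour in both genotypes. Lats1 was the lowest in both, at 1.03 in Ybx1cmKO and 1.09 in control hearts, with no overlap with the next gene. Reads were primed from the poly(A) tail, so their density need not be even along a transcript.

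The kinases and adaptors of the cascade gave no call in edgeR. Of 17 tested genes of this list 8 had a log2 fold change above 0 and 9 below, with a median of -0.03 where that of all genes was 0.01, and none had an unadjusted p below 0.05. Stk3 and Stk4, which encode the MST kinases, were at 8.33 and 7.39 normalised CPM in Ybx1cmKO hearts and at 8.30 and 7.28 in control hearts, and the scaffold gene Sav1 was at 16.9 and 15.8 (Ybx1cmKO and control). Mob1b, which encodes an activating subunit of LATS, was at 13.9, 13.5 and 14.8 normalised CPM in the Ybx1cmKO hearts and 16.9, 17.6 and 18.5 in the control hearts, without overlap. A log2 fold change of -0.33 (SE 0.16, edgeR adjusted p = 0.694) was estimated for Mob1b. In 2 of the 17, Mob1b and Map4k4, every Ybx1cmKO heart lay below every control, as in 5.82% of all genes. In 0 of the 17 did every Ybx1cmKO heart lie above every control, as in 6.26% of all genes. Tnik, which encodes a MAP4K family kinase, was at 11.5 ± 3.54 and 18.3 ± 6.91 normalised CPM (Ybx1cmKO and control, SD, n = 3 each). Its log2 fold change was -0.67 with all hearts and -0.34 without control heart 2.

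Upstream of the kinases, 1 of 19 tested regulators had an unadjusted p below 0.05, a share near the 5.14% of all genes, and edgeR called none of the 19. That gene was Amot, which encodes angiomotin, the founding member of the family that holds YAP at junctions and in the cytoplasm. Amot was at 8.97, 7.13 and 8.23 normalised CPM in the Ybx1cmKO hearts and 3.96, 4.34 and 5.17 in the control hearts. The groups did not overlap, and every Ybx1cmKO heart lay well above the highest control. Of the 19, 1 had every Ybx1cmKO heart above every control and 1 had every one below. These shares were 6.26% and 5.82% among all genes. As a log2 fold change the difference was 0.85 (SE 0.21, 95% interval 0.38 to 1.32, edgeR adjusted p = 0.694), and it lay between 0.75 and 0.96 when any heart was left out. Its relative Amotl1 was at 51.5 ± 10.4 normalised CPM in Ybx1cmKO and 59.0 ± 4.87 in control hearts. Nf2, which encodes the scaffold merlin, was at 22 ± 3.48 in Ybx1cmKO and 24.8 ± 3.81 in control hearts.

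Among 8 tested genes of YAP, TAZ, the TEAD factors and their VGLL cofactors, 5 lay above 0 and 3 below, and none was called by edgeR. Unadjusted, 1 of the 8 had a p below 0.05 in edgeR, where 5.14% of all genes did. That gene was Vgll3, a cofactor that binds TEAD in place of YAP. It stood at 4.69, 3.19 and 3.45 normalised CPM in the Ybx1cmKO hearts and 2.51, 1.66 and 2.32 in the control hearts, without overlap. Its log2 fold change was 0.79 (SE 0.28, edgeR adjusted p = 0.694). In 2 of the 8, Vgll3 and Tead1, every Ybx1cmKO heart lay above every control, as in 6.26% of all genes. Vgll4, known as an antagonist of YAP at TEAD, was at 9.24 ± 1.88 normalised CPM in Ybx1cmKO and 11.2 ± 3.23 in control hearts.

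A wider set of YAP and TAZ targets came from a published signature of 22 genes chosen on tumours, which shares 5 genes with the set. Of its 20 tested genes, 18 had a log2 fold change above 0 and 2 below, where 51.1% of all genes lay above 0, with a median of 0.24 where that of all genes was 0.01. Without the 5 shared genes, 13 of 15 lay above 0 with a median of 0.15, and 9 to 14 of the 15 did so in the fits that left out a heart. With library weights, which lean on control heart 1, 9 of the 15 lay above 0 with a median of 0.03. EdgeR called none of the 20, and 4 had an unadjusted p below 0.05, namely Ccn2, Ccn1, Ankrd1 and F3, all higher, where 2.69% of all genes were. Without the 5 shared genes this was 1 of 15, too few to set against that share. In 3 of these 15 every Ybx1cmKO heart lay above every control, as in 6.26% of all genes. F3, which encodes tissue factor, the starter of blood coagulation, was at 8.29, 6.83 and 12.7 normalised CPM in the Ybx1cmKO hearts and 6.07, 4.71 and 5.57 in the control hearts. The groups did not overlap. Its log2 fold change was 0.77 (SE 0.27, edgeR adjusted p = 0.694), and it was 0.47 without Ybx1cmKO heart 3. The 2 genes below 0, named after their values were seen, were Asap1 at -0.43 and Axl at -0.004. Fjx1 and Foxf2 were below the level needed for the test.

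**Figure D4:**
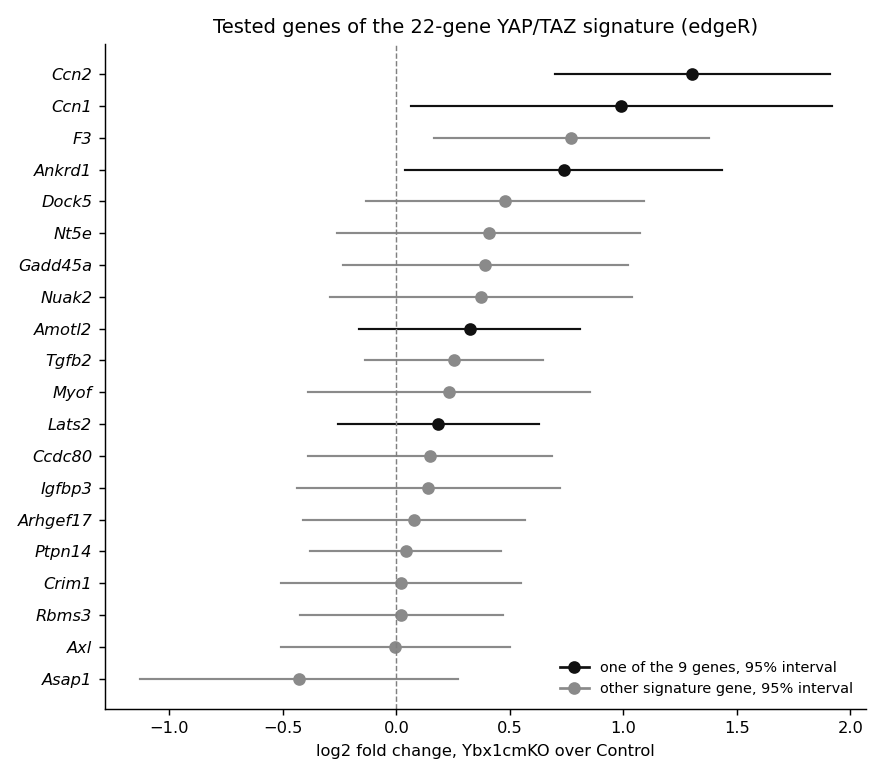
Log2 fold change, Ybx1cmKO over control (x axis), with 95% intervals from edgeR for the 20 tested genes of a YAP and TAZ target signature, sorted by size; black marks the 5 genes that belong to the set of 9. The points of 18 genes lie above 0, and the intervals of Ccn2, Ccn1, F3 and Ankrd1 do not reach 0.

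In the families of the target genes, edgeR called no further gene. All 4 tested CCN genes of 6 had a log2 fold change above 0, with a median of 0.82 that includes Ccn1 and Ccn2. Ccn5 was at 3.05 ± 1.51 normalised CPM in Ybx1cmKO and 1.94 ± 0.659 in control hearts, and Ccn3 at 1.95 ± 0.936 in Ybx1cmKO and 1.63 ± 0.325 in control hearts (SD, n = 3 each). Ccn4 and Ccn6 were below the level needed for the test. Of the muscle ankyrin repeat genes, Ankrd23 was at 74.9 ± 24.0 and 60.6 ± 16.3 normalised CPM (Ybx1cmKO and control, SD, n = 3 each), and Ankrd2 held 9 counts over all 6 libraries.

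Ccn1, Ccn2 and Ankrd1 also respond to other regulators, and 2 further lists were therefore described. Of 16 tested targets and cofactors of SRF, 7 lay above 0 and 9 below (median -0.04), and none was called by edgeR. Unadjusted, 1 of the 16 had a p below 0.05 in edgeR, where 5.14% of all genes did. That gene was Myocd, which encodes the SRF cofactor myocardin. Myocd was at 32.6, 38.1 and 21.7 normalised CPM in the Ybx1cmKO hearts and 73.6, 41.1 and 36.9 in the control hearts. Its groups overlapped, and the log2 fold change of -0.72 was -0.35 without control heart 1. Of 15 tested genes of TGF-beta signalling 10 lay above 0 and 5 below (median 0.15), where 51.1% of all genes lay above 0. None of the 15 was called by edgeR. Unadjusted, 2 of the 15 had a p below 0.05 in edgeR and were higher, where 2.69% of all genes were. In 3 of the 15 every Ybx1cmKO heart lay above every control, as in 6.26% of all genes. Smad3, which encodes a transcription factor activated by TGF-beta receptors, was at 4.55, 4.48 and 6.67 normalised CPM in the Ybx1cmKO hearts and 3.15, 2.22 and 3.25 in the control hearts (log2 fold change 0.86, SE 0.27, edgeR adjusted p = 0.694). Smad3 was among the genes counted by both measures, with an unadjusted p of 0.0117 in edgeR.

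Over the 6 hearts, the protein-coding genes with the most similar course to Ccn2 were Mt2, Cyp2b10 and Nppb, by root mean square difference of centred log2 levels (0.25, 0.26 and 0.26). Mt2, a metallothionein, was at 82.1, 83.7 and 34.1 normalised CPM in the Ybx1cmKO hearts and 19.2, 31.8 and 41.0 in the control hearts. Nppb, which encodes the natriuretic peptide BNP, was at 436, 505 and 281 in the Ybx1cmKO hearts and 189, 158 and 204 in the control hearts. Its groups did not overlap, and its log2 fold change was 1.15 (edgeR adjusted p = 0.694, DESeq2 adjusted p = 0.0201). Genes picked for likeness to Ccn2 will tend to differ between the groups as Ccn2 does. Cyp2b10, a cytochrome P450, did not exceed 1.82 normalised CPM in any heart. The genes most like Ankrd1 were Arhgap9, Sphk1 and Nmral1 (0.14, 0.18 and 0.19), and none of these exceeded 9.56 normalised CPM. With 6 libraries and 13717 genes, some genes can lie this close with no link to Ccn2 or Ankrd1. Whether any of the named genes is linked to them was not tested.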

How the data were processed

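RNA of 6 hearts was measured, and the labels name the group and heart number of each. TRIzol extraction, oligo(dT) priming, tagmentation and PCR made the libraries, per the labels' protocols. Per the submitters' processing notes, the reads were handled on mm39 by tools whose roles are not stated: edgeR 4.0.16, Subread 2.1.1 and featureCounts, SAMtools 1.22.1, and STAR 2.7.11. Not given in the sources used here are the annotation release, the strand setting and the treatment of multi-mapping reads. The authors deposited estimated counts, not all whole, and CPM, which equalled the count over the column total. The p-values measure only the spread between these hearts.

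Counts were rounded. In R 4.3.3, the quasi-likelihood test of edgeR (also 4.0.16) was run with TMM factors and Benjamini-Hochberg adjustment over all 13717 genes, two-sided, at 0.05. Intervals and SEs derive from its F statistic. DESeq2 1.42.0 and limma 3.58.1 were alternatives. The edgeR, DESeq2 and limma fits were tested on simulated data. Other alternatives were the scaling, the filter on low values, library weights, a replicate block and leaving out each heart. Same-numbered hearts were not treated as pairs. The genes and lists were chosen with earlier results of these data known. Named beyond the 9 were, per list, up to 5 genes with an unadjusted p below 0.05, or else the 2 with the smallest, and the 3 genes nearest in pattern to Ccn2 and to Ankrd1. Other list genes are given for their place in the family or pathway, outside this rule. A gene that the rule names in the list of TGF-beta signalling is not reported here. Promoter sequences and exon lengths are from RefSeq (GRCm38.p6) and GENCODE M21, an older build than that of the counts, and were joined by gene name or identifier only.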

Additional observations from a re-analysis of the deposited data

How the results depend on the processing

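No gene of the set was called by edgeR with all 6 hearts, and the count depended on the tool and the filter. Over all genes edgeR called 0 (705 at an unadjusted p below 0.05), limma-trend 0, DESeq2 15, limma-trend with library weights 18, edgeR without a filter on low values 133, and edgeR with heart number as a replicate block 5. Of the 9 genes DESeq2 and the weighted fit each called 1, Ccn2 (adjusted p = 0.00895 and 0.00241), and the unfiltered fit called 2, Ccn2 and Ccn1 (adjusted p = 3.70e-04 and 0.0257). The counts for the wider lists were 1, 1 and 2 in those fits, the same genes. In the weighted fit control heart 1 had a weight of 9.68 and the others 0.275 to 1.35. Leaving out hearts gave 0 to 1 called genes over all, the 1 being Ybx1 without Ybx1cmKO heart 3, and 0 of the 9 in each case.

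The log2 fold change of Ybx1 ranged from -2.60 to -2.19 without a heart, and Ybx1 passed over all genes in DESeq2 (-2.41), the weighted fit (-2.31), the unfiltered fit (-2.38), and the replicate block (-2.44). Same-numbered hearts did not deviate together throughout (correlations -0.11, 0.45 and 0.58). Hearts of different numbers gave correlations from -0.70 to 0.57. These correlations cannot settle whether the hearts were paired, since deviations from the mean of 3 hearts constrain one another. The hearts were not treated as pairs. Even so, the atrial markers Sln, Myl4 and Myl7 rose from heart 1 to heart 3 in both genotypes. Nppa did not share this order in Ybx1cmKO hearts. The labels do not say what the number stands for. The block changed no call among the 9. With it, 1807 genes had an unadjusted p below 0.05, against 705 without it, and the edgeR adjusted p of Ccn2 was 0.118. The log2 fold change of Lats1 turned to 0.0887 in edgeR with no scaling factor. It turned to 0.0315 in limma-trend on log2(CPM + 0.5) and to 0.0305 with a pseudocount of 0.1. The limma-trend fits also used no scaling factor, so these settings are not independent of one another. With a heart left out it ranged from -0.39 to 0.11, and it was above 0 without Ybx1cmKO heart 3. Apart from Lats1, the 9 genes kept their direction in all 15 alternatives each. In the weighted fit Amotl2 was at 0.002, Lats2 at 0.005 and Yap1 at 0.21. In edgeR without a scaling factor the median of all genes was 0.17 and that of the 9 genes 0.49. In limma-trend on log2(CPM + 0.5) these medians were 0.14 and 0.47. The cause of these shifts was not tested.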
